A study of Homo sapiens with 16 samples.

Results

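The MED1 peaks at 10 loci of the core p53 response were examined in HCT116, a line from a human colorectal carcinoma that keeps wild-type p53. A window in hg19 coordinates was set around each of CDKN1A, MDM2, GDF15, BTG2, SESN1, FAS, PLK2, TP53INP1, ZMAT3 and RRM2B, and every listed peak sharing at least 1 bp with a window was taken. Peaks were thus taken by position and not by any measured value, though the loci were chosen with earlier results of these data known. This gave 4 of the 3464 peaks in the 6 deposited lists, which merge into 2 of 1584 regions. Of the 4 peaks, 3 lay in the MDM2 window and 1 in the GDF15 window. The other 8 windows held no listed peak in any condition. The windows were 70 to 180 kb long and 1140 kb in all. In Mb, they ran from 36.60 to 36.70 (CDKN1A) and 109.27 to 109.45 (SESN1) on chromosome 6, and from 69.15 to 69.28 on chromosome 12 (MDM2). GDF15 was covered from 18.46 to 18.53 on chromosome 19, BTG2 from 203.23 to 203.32 on chromosome 1, and FAS from 90.70 to 90.82 on chromosome 10. PLK2 was covered from 57.70 to 57.80 on chromosome 5 and ZMAT3 from 178.70 to 178.84 on chromosome 3. On chromosome 8 the windows ran from 95.90 to 96.00 (TP53INP1) and from 103.18 to 103.29 (RRM2B).

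MED1 ChIP-seq had been made from 8 libraries, with 8 inputs and the same MED1 antibody throughout. Wild-type (WT) cells had received DMSO as mock or Nutlin-3a for 1 h, with 2 MED1 libraries behind 1 joint list in each condition. The CRISPR/Cas9-edited MED14-AID cells, genotype OsTir1+/-;Med14-AID+/+, carry an auxin-inducible degron on the Mediator subunit MED14 and the plant F-box protein that recognises it. They had received water as mock or 500 µM auxin for 3 h, either alone or with Nutlin-3a for 1 h afterwards, with 1 MED1 library in each of these 4 conditions. The labels give no DMSO hour for the edited cells without Nutlin-3a and do not say whether that line is a single clone. The lists held 1106 peaks (WT, DMSO), 1254 (WT, Nutlin-3a), 463 (MED14-AID, water), 522 (water and Nutlin-3a), 53 (auxin) and 66 (auxin and Nutlin-3a). They carry no read counts, so depth is unknown, no value has a spread between replicates, and no difference between conditions was tested. Peaks in each list were numbered without a gap. The cell line label rests on the submitters, since peak lists hold no expression.

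p53 is a transcription factor that is kept scarce in unstressed cells by MDM2, a ubiquitin ligase that binds it and sends it to the proteasome. Nutlin-3a occupies the p53-binding pocket of MDM2, so that p53 accumulates and activates its target genes, among them MDM2 itself in a negative feedback loop. Mediator is the large coactivator complex that relays signals from bound transcription factors to RNA polymerase II. MED14 forms its backbone, and MED1 belongs to its middle module and is widely used to mark active enhancers. The members cover several arms of the response. CDKN1A encodes the cyclin-dependent kinase inhibitor p21, and BTG2 an antiproliferative protein. GDF15 encodes a secreted stress cytokine of the TGF-beta superfamily, FAS a death receptor, SESN1 a stress-induced regulator of mTORC1, and PLK2 a polo-like kinase. TP53INP1 encodes a p53-induced nuclear protein, ZMAT3 a zinc finger RNA-binding protein, and RRM2B a ribonucleotide reductase subunit that supplies nucleotides for DNA repair.

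The sequences upstream of the starts of MDM2 and GDF15 are shown because only these loci carried a peak, together with the element found at FAS for comparison. They come from the RefSeq promoter table of GRCh38.p14, in which 8 of the 10 members had an entry, with 16 windows of 300 bases among them (250 before and 50 after a start). The table holds 4 MDM2 windows that form a pair of separate starts, and the first window of each start is shown over its 250 upstream bases, 5′ to 3′ on the plus strand. Capitals mark a p53 response element or a TATA box.
MDM2, upstream start, chr12:68807922-68808171: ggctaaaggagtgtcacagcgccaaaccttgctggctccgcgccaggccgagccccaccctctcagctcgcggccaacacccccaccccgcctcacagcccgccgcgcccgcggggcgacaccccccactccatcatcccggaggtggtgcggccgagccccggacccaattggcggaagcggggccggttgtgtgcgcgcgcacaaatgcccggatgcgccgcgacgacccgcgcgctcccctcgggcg
MDM2, downstream start, chr12:68808767-68809016: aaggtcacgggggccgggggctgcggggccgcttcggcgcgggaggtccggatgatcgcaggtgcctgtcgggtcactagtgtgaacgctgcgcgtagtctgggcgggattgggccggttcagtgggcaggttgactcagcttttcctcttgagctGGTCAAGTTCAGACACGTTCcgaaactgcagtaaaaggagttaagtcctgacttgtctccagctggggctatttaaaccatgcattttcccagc
GDF15, chr19:18385908-18386157: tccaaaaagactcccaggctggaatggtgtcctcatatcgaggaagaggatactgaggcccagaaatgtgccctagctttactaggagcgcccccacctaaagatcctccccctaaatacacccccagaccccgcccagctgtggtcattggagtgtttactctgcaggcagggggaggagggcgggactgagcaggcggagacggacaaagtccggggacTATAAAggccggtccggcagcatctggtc
FAS, element only, chr10:88991309-88991328: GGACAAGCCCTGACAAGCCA

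The p53 response element was searched as a pair of p53 half-sites up to 13 bases apart, with the C and G of both cores kept and at most 2 mismatches in all. The element reads the same on both strands, so this covers both. It was found before the downstream start of MDM2, at -94 to -75 from that start with 2 mismatches and no spacer, and not before the upstream start. The MDM2 gene is known for a promoter in its first intron that responds to p53. At FAS, whose product triggers apoptosis when bound by its ligand, a pair of half-sites lay at -122 to -103 from 1 of its 3 starts, also with 2 mismatches. In all, 3 of the 16 member windows held the element, 2 of them overlapping windows of the downstream MDM2 start, against 2.93% of all 35116 RefSeq promoter windows of this length. Sequence outside these windows and elements with more mismatches were not searched. A window without a match therefore does not show that its gene lacks an element. A single half-site with no mismatch stood in 3 of the 16, at PLK2, SESN1 and FAS, against 6.63% of all, and the one at FAS is part of the pair printed above. The GDF15 window was the only one of the 16 with the TATA box TATAAA on either strand, at -29 to -24, against 11.5% of all. CpG dinucleotides numbered 11 at GDF15 and 21 to 39 over the MDM2 windows, with a median of 14 over all promoters. CDKN1A had 29, BTG2 34 and PLK2 40, while SESN1 had 18 to 38, FAS 14 to 22 and ZMAT3 2 to 32 over their windows. These matches describe letters in fixed windows of another genome build than the peaks, so no peak could be placed on them.

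MDM2 was the only locus with a listed MED1 peak in both lines. Its peak was listed in WT cells with DMSO, in WT cells with Nutlin-3a, and in water-treated MED14-AID cells given Nutlin-3a. It was not listed in MED14-AID cells with water alone, with auxin, or with auxin and Nutlin-3a. With DMSO the peak spanned chromosome 12, 69201872 to 69202436 (hg19), with a fold enrichment over the caller's background of 2.59 and a −log10 q of 3.44. With Nutlin-3a in WT cells it spanned 69202068 to 69202905, with a fold of 3.29 and a −log10 q of 8.15. In water-treated MED14-AID cells given Nutlin-3a it spanned 69202103 to 69202675, with a fold of 3.64 and a −log10 q of 4.66. Fold and q are the authors' values and also depend on the depth and number of libraries. They are ranked here only within a list, and a common −log10 q limit is applied across lists only as an alternative setting. All 3 peaks stood below the median −log10 q of their lists, which was 9.34, 11.4 and 9.84.

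**Figure D1:**
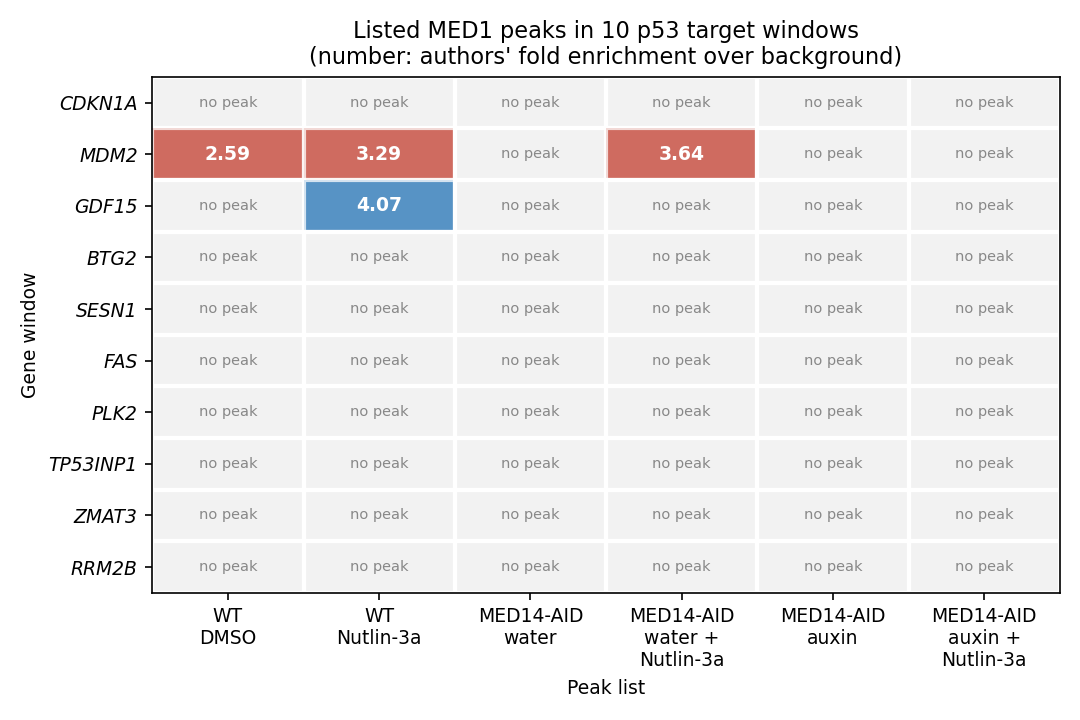
Listed MED1 peaks by gene window (rows) and peak list (columns); each coloured cell holds the authors' fold enrichment over background, and grey cells mark a window with no listed peak. Of the 60 cells, 56 are empty, and the 4 filled ones are MDM2 in 3 lists and GDF15 in 1.

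The MDM2 peaks were at the same place in the lists that held one. All 3 shared 334 bp within a merged region of 1034 bp, and their summits lay within 222 bp of each other. The DMSO and Nutlin-3a peaks of WT cells overlapped by 369 bp, which was 65.3% of the first and 44.0% of the second. The summit with Nutlin-3a lay 222 bp to the right of the DMSO summit, at 69202510 against 69202288. The peak of water-treated MED14-AID cells given Nutlin-3a fell completely inside the WT Nutlin-3a peak, and its summit at 69202321 was 33 bp from the WT DMSO summit. No spread of summit positions between replicates is available, so whether the summit moved was not tested. The peak in WT cells was 565 bp wide with DMSO and 838 bp with Nutlin-3a, and it was 573 bp wide in MED14-AID cells. The median width of those lists was 760.5, 818 and 830.5 bp.

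**Figure D2:**
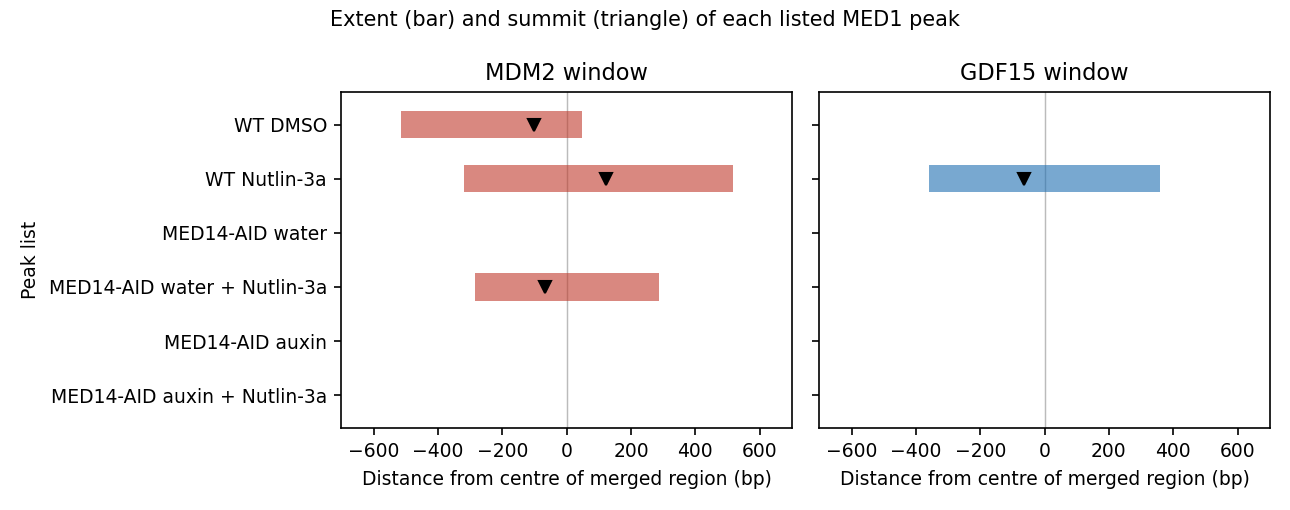
Extent (bars) and summit (triangles) of each listed MED1 peak in the MDM2 window (left) and the GDF15 window (right), in bp from the centre of the merged region, for the 6 lists (rows). The 3 MDM2 peaks share 334 bp around the centre, and the GDF15 peak of 718 bp stands in a single list.

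GDF15 had a MED1 peak in WT cells with Nutlin-3a and in no other list. It spanned chromosome 19, 18499115 to 18499832 (hg19), 718 bp, with its summit at 18499411. Its fold was 4.07 and its −log10 q 14.0, both above those of the MDM2 peak in the same list (3.29 and 8.15). It was therefore the strongest member peak in the list where both were present. The nearest peak to the GDF15 window was 614 kb away in the WT DMSO list and 678 kb away in both MED14-AID lists with water. With auxin it was 12260 kb away, and with auxin and Nutlin-3a 2520 kb. In RefSeq gene order the protein-coding neighbours of GDF15 are PGPEP1 and LRRC25, and those of MDM2 are SLC35E3 and CPM. The position of the peaks relative to exons, introns and starts was not analysed here, since the gene table is of GRCh38.

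Within their lists the member peaks ranked in the middle or low. In WT cells with Nutlin-3a, GDF15 ranked 499 of 1254 by −log10 q, so that 39.7% of the list (Wilson 95% interval 37.0 to 42.4%) stood above it. MDM2 ranked 849 in the same list, with 67.6% above it (65.0 to 70.2%). With DMSO the MDM2 peak ranked 1029 of 1106, with 92.9% above it (91.3 to 94.3%), and in water-treated MED14-AID cells given Nutlin-3a it ranked 462 of 522, with 88.3% above it (85.3 to 90.8%). These shares are exact for the deposited lists, so the intervals measure no uncertainty of a rank. By fold the ranks were higher, at 373 for GDF15 and 706, 893 and 374 for MDM2 in WT Nutlin-3a, WT DMSO and MED14-AID cells. The lowest −log10 q of any peak was 1.58 in the WT DMSO list, 1.92 in the WT Nutlin-3a list and 1.66 in water-treated MED14-AID cells given Nutlin-3a. The MDM2 peak with DMSO was thus 1.87 above the weakest peak of its list, and the one in MED14-AID cells 2.99 above.

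**Figure D3:**
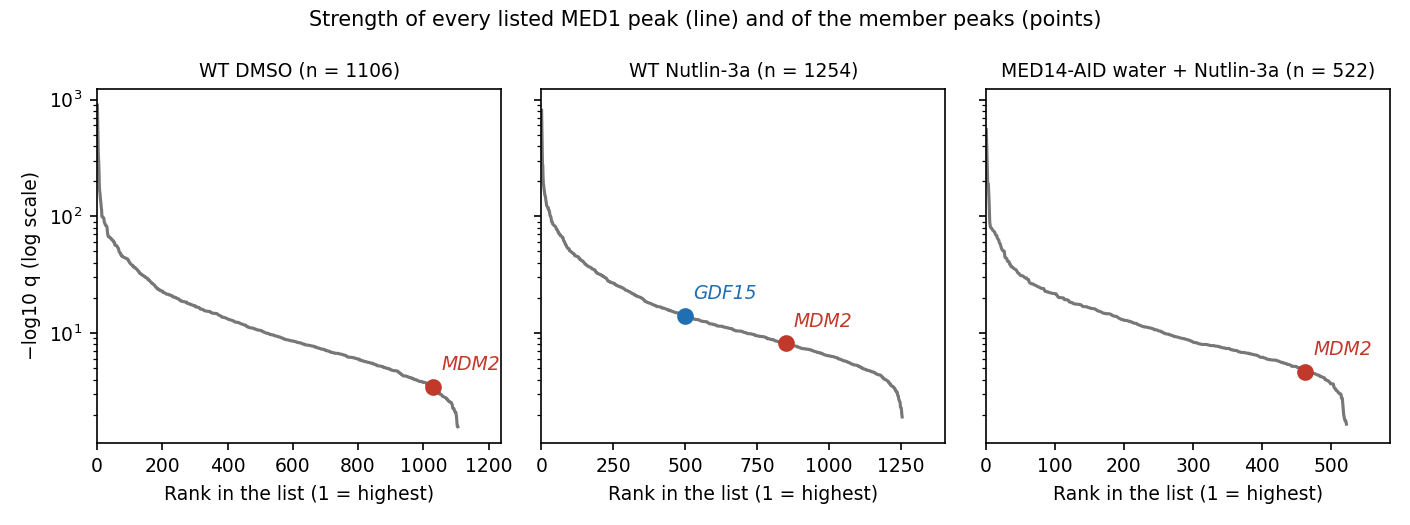
−log10 q of every listed MED1 peak (grey line, log axis) by its rank in the list, for the 3 lists that held a member peak, with the member peaks as points. MDM2 sits at rank 1029 of 1106, 849 of 1254 and 462 of 522, and GDF15 at rank 499 of 1254.

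The first comparison asks where MED1 was listed with Nutlin-3a and not with DMSO in WT cells. Of the 2 member peaks in the Nutlin-3a list, MDM2 overlapped a DMSO peak and GDF15 did not. Over the whole list, 35.0% of Nutlin-3a peaks (32.4 to 37.7%) overlapped no DMSO peak, and a count of 1 of 2 is too small to be read against it. By −log10 q, GDF15 was among the stronger of the 439 Nutlin-3a peaks without a DMSO counterpart. Of these, 46 stood at least as high, GDF15 included. They were 9.22% (6.98 to 12.1%) of all 499 Nutlin-3a peaks with such a −log10 q. GDF15 is the weakest of these 499, so the share among peaks of its own strength was not measured. Conversely, the single DMSO member peak, MDM2, overlapped a Nutlin-3a peak, where 26.5% of all DMSO peaks overlapped none. Of the 78 DMSO peaks with a −log10 q no higher than that of MDM2, which is included, 27 (34.6%, 25.0 to 45.7%) overlapped a Nutlin-3a peak.

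In MED14-AID cells with water, MDM2 was the only member with a peak, and only together with Nutlin-3a. Of the 522 peaks with Nutlin-3a, 31.2% (27.4 to 35.3%) had no counterpart in the list without it, and 22.5% of the 463 peaks without Nutlin-3a, none of them a member, had none in the list with it. Of the 61 peaks with a −log10 q no higher than the 4.66 of MDM2, which is included, 36 (59.0%, 46.5 to 70.5%) overlapped none. In the lists as deposited, MDM2 was thus present with and without Nutlin-3a in WT cells and only with it in MED14-AID cells. With −log10 q of at least 5 in all lists, 0 MDM2 peaks were left in WT cells with DMSO and in MED14-AID cells, which ends both statements. Since q also depends on depth and number of libraries, that limit need not be equally strict in each list. Whether the lines differ in this was not tested, since each condition has a single list.

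In MED14-AID cells treated with auxin to deplete MED14, none of the 10 windows held a MED1 peak, with or without Nutlin-3a. The peak lists do not measure MED14 itself. Without Nutlin-3a there was no member peak to lose, because the matching water list, of whose peaks 9.50% overlapped an auxin peak, held none in the windows. With Nutlin-3a, 1 member peak, MDM2, was in the water list and did not overlap a peak of the auxin list. Of all 522 peaks of that water list, 9.0% (6.84 to 11.8%) overlapped a peak with auxin and Nutlin-3a. Of the 61 with a −log10 q no higher than that of MDM2, which is included, 0 did (0 to 5.92%). MDM2 is the strongest of these 61, so the share among peaks of its own strength was not measured. GDF15 had no peak in either water list, so its loss could not be asked.

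Between the lines without auxin, MDM2 was in both Nutlin-3a lists and GDF15 in WT cells alone. Of all WT Nutlin-3a peaks, 33.2% (30.6 to 35.8%) had a counterpart there. For MDM2, the share was also taken over the peaks no stronger than it. Of the 406 WT Nutlin-3a peaks with a −log10 q of at most that of MDM2, which is included, 31 (7.64%, 5.43 to 10.6%) overlapped a peak of that MED14-AID list. MDM2 is the strongest of these 406, so the share among peaks of its own strength was not measured. For GDF15 the absence was not rare among peaks at least as strong, since 183 of these 499 (36.7%, 32.6 to 41.0%) overlapped none. GDF15 is included and is the weakest of these 499, so its own strength was again not matched. The DMSO peak of MDM2 had no counterpart in the water list. Of all DMSO peaks 33.3% did, and of the 78 with a −log10 q no higher than that of MDM2 8 did (10.3%, 5.29 to 19.0%).

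Neither pattern across the 6 lists was limited to its locus. MDM2 was 1 of 71 regions, 4.48% of 1584, with a peak in both WT lists and in water-treated MED14-AID cells given Nutlin-3a and in no other list. GDF15 was 1 of 384 regions, 24.2%, listed in WT cells with Nutlin-3a alone. Both peaks also lacked a close neighbour in their lists. The nearest other peak of the same list was 550 kb from MDM2 with Nutlin-3a in WT cells, 551 kb with DMSO and 2981 kb in MED14-AID cells, and 644 kb from GDF15. Over the lists, 46.2% of WT DMSO peaks, 52.0% of WT Nutlin-3a peaks and 57.3% of peaks of water-treated MED14-AID cells given Nutlin-3a had a neighbour within 12.5 kb. Lacking one at that distance was therefore common, and distances as long as these were not compared with those of other peaks.

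The other 8 loci had no listed MED1 peak. In the WT Nutlin-3a list their windows lay a median of 1032 kb from the nearest one. The median 100 kb tile cut along the chromosomes lay 2791 kb from its nearest peak in that list. Medians over all 10 windows are set beside such tiles below, with the order reversed for auxin alone. CDKN1A, whose product p21 halts the cell cycle, had no peak in its window. Its nearest peak was 1163 kb away in WT cells with DMSO and 2383 kb with Nutlin-3a. In MED14-AID cells it was 3661 kb with water, 5010 kb with water and Nutlin-3a, and 5862 kb in both auxin lists. The closest peak to any empty window of the 8 was 216 kb from SESN1, whose product inhibits mTORC1 signalling, in WT cells with DMSO. In the Nutlin-3a list of WT cells the nearest peak to SESN1 was 20361 kb away, both water lists had it at 20362 kb, and the auxin lists at 42262 kb or more. Each such distance rests on the nearest peak alone, and 26.5% of all WT DMSO peaks overlapped no WT Nutlin-3a peak. Whether the distance to SESN1 changed was not tested. RRM2B had a peak 377 kb away in both WT lists and 528 kb away in both MED14-AID lists with water, against 23402 kb with auxin and 8293 kb with auxin and Nutlin-3a.

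The nearest peak to TP53INP1 was 951 to 971 kb away in the 4 lists without auxin, 30692 kb with auxin and 1013 kb with auxin and Nutlin-3a. For PLK2 it was 1037 kb away in both WT lists and in water-treated MED14-AID cells given Nutlin-3a, and 23774 kb with water alone. With auxin it was 57464 kb, and with auxin and Nutlin-3a 51066 kb. FAS had its nearest peak 1027 kb away in both WT lists, 4405 kb away in MED14-AID cells with water alone, 861 kb away when Nutlin-3a was added, and 33894 kb away in both auxin lists. BTG2 had its nearest 1242 kb away with DMSO and 821 kb with Nutlin-3a in WT cells, 3873 kb away in both water lists and 8112 kb in both auxin lists. ZMAT3 lay farthest of the 10 in WT cells with DMSO, with 5064 kb to its nearest peak, and that distance was 39668 kb or less in the other lists without auxin and 103002 kb or more with auxin. None of the 8 windows was reached by a peak when all windows were widened by 50 kb on each side.

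**Figure D4:**
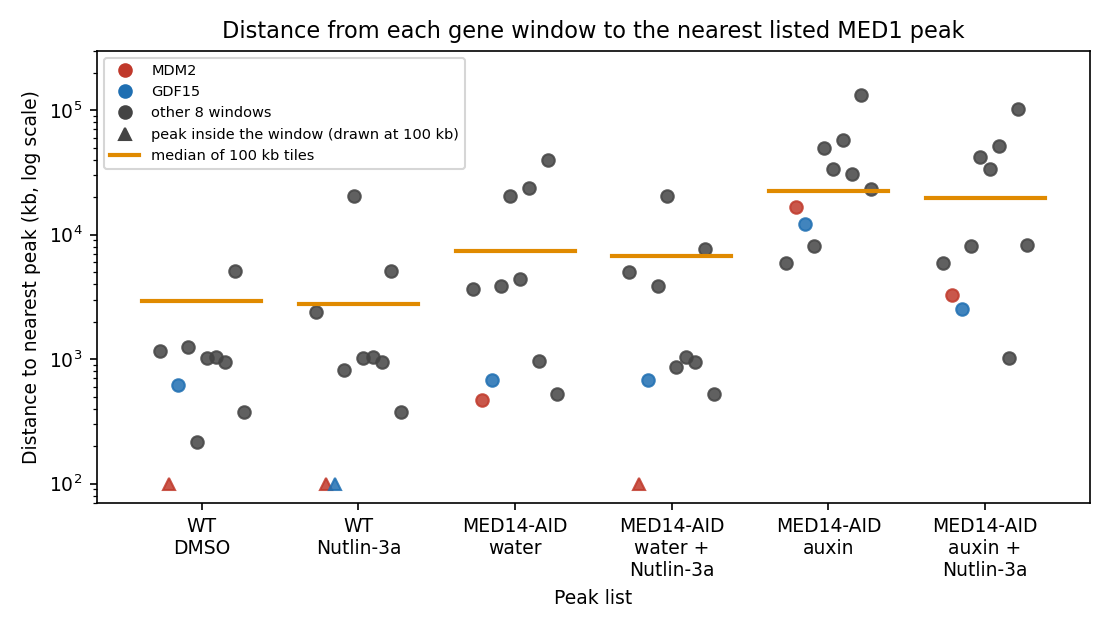
Distance in kb (log axis) from the edge of each gene window to the nearest listed MED1 peak, for the 6 lists; triangles mark a peak inside the window, drawn at 100 kb because 0 has no place on a log axis, and orange lines mark the median over 100 kb tiles of the genome. The 3 MDM2 triangles and the GDF15 triangle are the only windows with a peak.

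As a background for the windows, each chromosome was cut into tiles of 100 kb up to its last listed peak, 30429 tiles in all. At least 1 peak stood in 2.19% of tiles in the WT DMSO list (1 of 10 windows), 2.29% in the WT Nutlin-3a list (2 of 10), 0.799% in MED14-AID cells with water (0 of 10) and 0.907% with water and Nutlin-3a (1 of 10). In the auxin lists it was 0.161% without and 0.207% with Nutlin-3a (0 of 10 in both). The windows were centred on genes and the tiles were not, and tiles in gene-poor sequence lower these shares, so the counts are set side by side without a test. The median window lay 989 kb from the nearest peak in both WT lists, against 2929 kb (DMSO) and 2791 kb (Nutlin-3a) for the median tile. In the edited line it lay 3767 kb away with water and 994 kb with water and Nutlin-3a, against 7325 and 6781 kb for tiles. Tiles on chromosomes with no peak in a list have no distance, which leaves 29839 tiles for WT Nutlin-3a and for MED14-AID cells with water alone, 25657 with auxin and 27817 with auxin and Nutlin-3a. With auxin the order was reversed, at 27047 kb against 22315 kb, and with auxin and Nutlin-3a it was 8203 kb against 19640 kb.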

How the data were processed

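MED1 ChIP-seq peak lists of HCT116 cells were used. The submitters' processing notes name Bowtie 0.12.9, MACS2 2.1.2 and the build hg19, and their settings are not given in the sources used here. Per the labels, the 2 replicates of a WT condition share 1 list, while a MED14-AID list comes from 1 library. The deposited fold is a ratio over background and the deposited −log10 q the significance of that enrichment, both as the authors' caller gave them. Where peaks are called stronger or weaker, this is by −log10 q unless fold is named. The deposited summit offset is in bp. Weaker binding than the lowest listed −log10 q is not seen, and depth is unknown.

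Peaks were put in a window, and lists compared, where they shared at least 1 bp. Wilson 95% intervals beside shares cover counting error only, treat peaks of a list as independent and hold no spread between replicates. Beside a rank they measure no uncertainty, since the rank is exact for its list. No test between conditions was made. Overlap counts differed from bedtools 2.31.1 in 0 of 36 cases, and the functions were also tested on simulated data. Python 3.11.15, numpy 2.4.6, pandas 2.3.3, statsmodels 0.14.6 and matplotlib 3.10.9 were used. Positions are 1-based. All 10 members are named, with every peak. The members and lists were chosen with earlier results of these data known, and the limits taken from the strength of MDM2 and GDF15, the tiles of 100 kb and the neighbour distance were chosen after their values were seen. MDM2 is the strongest peak of each set limited by its −log10 q, and GDF15 the weakest of each set limited by its own. Alternatives were −log10 q of at least 5 or 10, the summit inside the window, windows widened by 50 kb, 50% reciprocal overlap, a gap of 1 kb, lists of equal length and rank by −log10 q. A list of other p53 pathway genes was not analysed here, because no hg19 annotation was at hand.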

Additional observations from a re-analysis of the deposited data

How the results depend on the processing

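Of 116 recomputed values, 90 counts kept to within 1.5 times their main value and 22 did not. Many of the 90 were counts of 0 that stayed 0, most of which could not change when peaks were only removed. Peak and window counts also repeat each other, so this tally does not measure how stable the results are. The 4 ranks moved outside the Wilson 95% interval of their share by fold. That interval served only as a fixed limit, since it holds no spread between replicates and measures no uncertainty of a rank. Requiring −log10 q of at least 5 left 0 member peaks and 0 windows in the WT DMSO list and in water-treated MED14-AID cells given Nutlin-3a. MDM2 then counted as absent with DMSO, so that 2 WT Nutlin-3a member peaks overlapped no DMSO peak, while the counts of MED14-AID Nutlin-only peaks and of WT Nutlin-3a peaks shared with MED14-AID cells fell to 0. At −log10 q of at least 10, 1 peak in 1 window, GDF15, was left in the WT Nutlin-3a list, and 0 in the WT DMSO list and in MED14-AID cells, with 0 Nutlin-only and 0 shared peaks there. With equal list lengths, 0 peaks and 0 windows were left among the 463 peaks of either WT list with the highest −log10 q (by fold, GDF15 at rank 373 would be among them). MDM2 at rank 462 was just kept in water-treated MED14-AID cells given Nutlin-3a. For overlaps, the longer list was cut to the length of the shorter. The WT Nutlin-3a list, cut to 522 peaks, then shared 0 member peaks with MED14-AID cells. These changes follow from fewer and stronger peaks being compared. With 50% reciprocal overlap, the MDM2 peaks of the WT lists no longer counted as shared, which gave 2 Nutlin-only peaks and 1 DMSO-only peak. By −log10 q in place of fold, MDM2 ranked 1029 in place of 893 (WT DMSO), 849 in place of 706 (WT Nutlin-3a) and 462 in place of 374 (MED14-AID, water and Nutlin-3a), and GDF15 499 in place of 373. The summit rule, windows widened by 50 kb and a gap of 1 kb changed no count. No paired analysis was possible because the lists carry no value per replicate, and for the same reason no replicate could be left out.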
